A study of Homo sapiens with 6 samples.

Results

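Dermatopontin, tenascin C, SPARC, thrombospondin 1, pentraxin 3, perlecan, agrin and olfactomedin 1 are secreted glycoproteins or proteoglycans of the extracellular matrix. Their genes DPT, TNC, SPARC, THBS1, PTX3, HSPG2, AGRN and OLFM1 were taken by symbol from the count table, 8 of 30651 listed genes, and all 8 had enough reads to be tested. The table places AGRN (ENSG00000188157.15), DPT (ENSG00000143196.5) and HSPG2 (ENSG00000142798.20) on chromosome 1, PTX3 (ENSG00000163661.4) on chromosome 3 and SPARC (ENSG00000113140.11) on chromosome 5. TNC (ENSG00000041982.16) and OLFM1 (ENSG00000130558.20) are on chromosome 9, and THBS1 (ENSG00000137801.11) is on chromosome 15. They were chosen with their differences between the groups already known, so those differences are given as a description. Where the text says that any of the 8 passed the threshold used for all genes, that was known when the genes were chosen, and it is no independent test. The samples were 6 libraries of total RNA from PC-3 cells, a human line grown from a prostate cancer metastasis in bone. The MTA1 group held 3 libraries, whose data columns begin with shMTA1, as a short hairpin RNA against MTA1 is usually written. The MTA1 protein belongs to the chromatin complex NuRD. The Ctrl group held 3 libraries of the same line, whose columns begin with NC. The labels name lentivirus and the screening of stable clones for all 6 samples, without a count of hairpins or clones and without saying that the libraries came from separate cultures. Any p-value therefore sets a difference against the variation among these 6 libraries only, and that variation may be technical.

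The extracellular matrix is built from collagens and from glycoproteins that bind collagen, growth factors and cell receptors. DPT protein binds decorin and collagen and affects how fibrils form, and it is best known from dermal fibroblasts. TNC, SPARC and THBS1 are matricellular proteins, which act on the contact between cells and matrix more than they bear load. Perlecan (HSPG2) and agrin (AGRN) carry heparan sulfate chains and belong to basement membranes. PTX3 is a soluble pattern-recognition protein that also joins hyaluronan-rich matrix, and OLFM1 is a secreted glycoprotein studied mainly in neural tissue.

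MTA1 itself had 528, 572 and 519 reads in the MTA1 libraries and 1185, 1331 and 1352 reads in the Ctrl libraries, so the targeted message was lower in each MTA1 library. The MTA1 mean was 43.4% of the Ctrl mean in CPM, the count of a gene scaled by TMM so that libraries of unequal depth compare. Library totals ran from 29909172 to 33849262 counts. Of 15423 genes tested with edgeR's quasi-likelihood test, 58.1% passed an adjusted p of 0.05. Keratin genes KRT8 (1541 CPM in MTA1 and 1886 CPM in Ctrl libraries) and KRT18 (1267 and 1343 CPM) were abundant, and KLK3, the gene of prostate-specific antigen, had 1 read in all.

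The 250 bases before the annotated start are shown for the genes with the widest differences between the groups, DPT, PTX3 and TNC upward and OLFM1 downward, because these 4 differ in base composition. The sequences are from RefSeq (GRCh38.p14), 5′ to 3′ on the strand of the gene, at chr1:168729207-168729456 (minus strand) for DPT, chr3:157436600-157436849 (plus strand) for PTX3, chr9:115118158-115118407 (minus strand) for TNC and chr9:135075255-135075504 (plus strand) for the first of 3 OLFM1 starts. Capitals mark matches to the TATA box letters TATANA on the written strand and to the GC box letters GGGCGG on either strand.
DPT: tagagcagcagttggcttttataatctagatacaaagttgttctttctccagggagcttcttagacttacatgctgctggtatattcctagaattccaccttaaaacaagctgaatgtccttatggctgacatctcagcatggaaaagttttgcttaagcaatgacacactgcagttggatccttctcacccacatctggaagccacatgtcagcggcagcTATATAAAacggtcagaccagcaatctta
PTX3: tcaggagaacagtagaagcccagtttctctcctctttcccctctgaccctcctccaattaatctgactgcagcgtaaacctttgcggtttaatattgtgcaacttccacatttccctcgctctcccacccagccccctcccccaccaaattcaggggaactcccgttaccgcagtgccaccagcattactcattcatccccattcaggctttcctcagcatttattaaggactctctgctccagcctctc
TNC: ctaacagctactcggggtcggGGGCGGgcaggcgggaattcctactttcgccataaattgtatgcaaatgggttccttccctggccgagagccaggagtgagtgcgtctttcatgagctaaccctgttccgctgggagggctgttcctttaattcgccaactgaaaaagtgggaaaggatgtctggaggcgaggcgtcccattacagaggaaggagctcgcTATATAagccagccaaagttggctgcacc
OLFM1: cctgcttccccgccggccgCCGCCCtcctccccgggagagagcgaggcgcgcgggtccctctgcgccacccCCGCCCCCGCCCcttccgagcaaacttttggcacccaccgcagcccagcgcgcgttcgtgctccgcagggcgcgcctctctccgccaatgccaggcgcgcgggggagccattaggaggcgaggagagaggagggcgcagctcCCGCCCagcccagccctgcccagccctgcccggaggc

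DPT had the largest difference of the 8 genes. Its level was 92.7, 85.8 and 84.9 CPM in the MTA1 libraries and 14.6, 13.7 and 13.0 CPM in the Ctrl libraries. Every MTA1 library was far above every Ctrl library. The mean was 87.8 ± 4.25 CPM in MTA1 and 13.8 ± 0.777 CPM in Ctrl libraries (SD, n = 3 each), a difference of 6.38-fold (log2 fold change 2.67 ± 0.057, SE), which was higher than that of 99.9% of the tested genes. By FPKM, which also scales for gene length, DPT stood at rank 923 of 29969 genes in the MTA1 group and at rank 3593 in the Ctrl group. In bulk RNA, a change in the share of cells that express a gene and a change in RNA per cell cannot be told apart.

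Markers of other cell types were read because DPT is a fibroblast gene. Of 9 fibroblast markers, 8 were tested, 2 rose and 2 fell, a share called of 50%, beside 58.1% of all tested genes. These counts were the same with DESeq2 and limma-voom but depended on other settings. With scaling by library size only 4 rose and 2 fell, and without MTA1 replicate 1 the counts were 3 and 3. THY1 rose (77.0 CPM in MTA1 and 32.1 CPM in Ctrl libraries), as did FAP (1.62 and 0.319 CPM). COL1A1 fell (16.4 CPM in MTA1 and 31.6 CPM in Ctrl libraries), as did PDGFRB (2.55 and 3.60 CPM), and PDGFRA had 17 reads in all. DCN and LUM are also in the list of proteoglycans and did not pass. The summed level of the 9 was 115 to 117 CPM in MTA1 and 79.1 to 88.2 CPM in Ctrl libraries. THY1 alone held 77.0 CPM of it in MTA1 and 32.1 CPM in Ctrl libraries on average. The higher sum therefore does not stand for the 9 markers as a set. Of 7 endothelial markers 3 were tested and none passed in edgeR, DESeq2 or limma-voom, nor at an unadjusted p of 0.05. The 7 summed to 11.4 to 11.7 CPM in MTA1 and 11.6 to 13.6 CPM in Ctrl libraries. PECAM1 alone held 10.3 CPM of it in MTA1 and 11.3 CPM in Ctrl libraries on average, while CLDN5 had 2 reads in all. Of 5 listed leukocyte markers 3 were tested and none passed in edgeR, DESeq2 or limma-voom, nor at an unadjusted p of 0.05, at 7.83 to 9.81 CPM summed in MTA1 and 8.90 to 9.68 CPM in Ctrl libraries, with PTPRC at 7 reads in all. The part of fibroblast marker genes in the level of DPT was not tested.

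The 3 matricellular genes did not move as one. TNC, the hexameric glycoprotein of remodelling and tumour stroma, had 51.0, 48.7 and 47.6 CPM in MTA1 libraries and 19.5, 18.1 and 18.2 CPM in Ctrl libraries, and the groups did not overlap. Its level was 2.64-fold higher in the MTA1 group (log2 fold change 1.40 ± 0.054). SPARC, a collagen-binding protein also called osteonectin, was the most abundant of the 8 genes, with 255, 251 and 251 CPM in MTA1 libraries and 188, 181 and 179 CPM in Ctrl libraries. That was 1.38-fold higher in the MTA1 group (0.47 ± 0.039), again with no overlap. THBS1, which binds CD47 and CD36 and activates latent TGF-beta, had 27.7, 32.0 and 31.6 CPM in MTA1 libraries and 34.0, 35.1 and 34.3 CPM in Ctrl libraries. The groups were apart by a narrow margin, and MTA1 replicate 1 was the lowest library. The MTA1 mean was 88.3% of the Ctrl mean (log2 fold change -0.18 ± 0.057), and without MTA1 replicate 1 the log2 fold change was -0.12, which no longer passed the threshold.

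PTX3 was the least abundant of the 8 genes in counts. It had 426, 450 and 418 reads in MTA1 libraries and 87, 106 and 100 in Ctrl libraries, or 14.0, 14.2 and 13.5 CPM against 2.82, 3.24 and 3.04 CPM. The MTA1 libraries lay close together and all were above the Ctrl libraries. The level was 4.57-fold higher in the MTA1 group (log2 fold change 2.19 ± 0.088).

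The 2 heparan sulfate proteoglycans of basement membranes differed in opposite directions. AGRN, known for clustering acetylcholine receptors at the neuromuscular junction through LRP4, had 118, 113 and 116 CPM in MTA1 libraries and 79.1, 82.4 and 81.9 CPM in Ctrl libraries. HSPG2 had 81.3, 87.0 and 81.7 CPM in MTA1 libraries and 94.4, 95.1 and 97.2 CPM in Ctrl libraries. Neither gene's groups overlapped, with AGRN 1.42-fold higher (0.51 ± 0.041) and HSPG2 at 87.2% of the Ctrl mean (-0.20 ± 0.043). The ratio of AGRN to HSPG2 in FPKM was 2.44, 2.19 and 2.38 in MTA1 libraries and 1.41, 1.46 and 1.42 in Ctrl libraries, so agrin message exceeded perlecan message per length in all 6 libraries and by more in the MTA1 group.

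OLFM1 differed most in the downward direction. Its level was 37.5, 37.1 and 39.1 CPM in MTA1 libraries and 113, 124 and 121 CPM in Ctrl libraries, with a wide gap between the groups. The mean was 37.9 ± 1.05 CPM in MTA1 and 119 ± 5.78 CPM in Ctrl libraries (SD, n = 3 each), which left 31.7% of the Ctrl level (log2 fold change -1.66 ± 0.048). Only 0.888% of the tested genes had a lower log2 fold change.

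**Figure D1:**
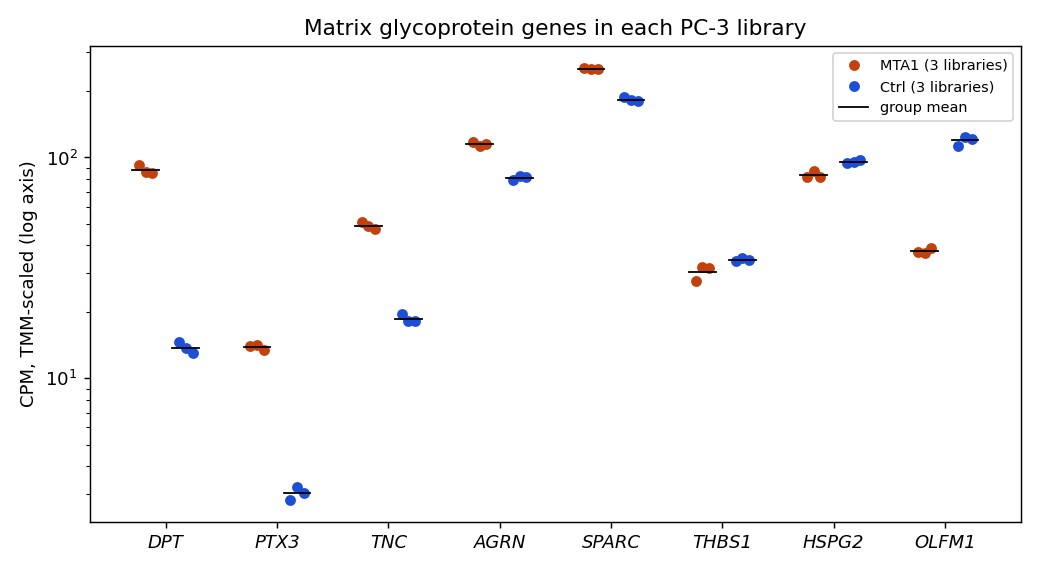
Level of each gene in CPM (counts scaled with TMM factors, log axis) in the 3 MTA1 libraries, left, and the 3 Ctrl libraries, right, with lines at the group means. The groups do not overlap for any of the 8 genes, which were chosen on this contrast, nor for 62.7% of all tested genes. The widest gaps are those of DPT (87.8 CPM in MTA1 and 13.8 CPM in Ctrl libraries), PTX3 (13.9 and 3.03 CPM) and OLFM1 (37.9 and 119 CPM).

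By the threshold used for all genes, 5 of the 8 genes were higher in the MTA1 group and 3 lower. Of all tested genes, 29.5% were called higher and 28.6% lower. The groups of libraries did not overlap for 62.7% of all tested genes. The 8 genes were chosen on this contrast, so nothing is read from their counts. The sizes spread widely. DPT, PTX3, TNC and OLFM1 differed by at least 2-fold, and 6.19% of all tested genes both passed the threshold and differed by that much, while AGRN and SPARC were higher than 86.7% and 84.6% of the tested genes in log2 fold change. THBS1 and HSPG2 lay inside the bulk of the genes, with 33.3% and 31.6% of tested genes below them.

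**Figure D2:**
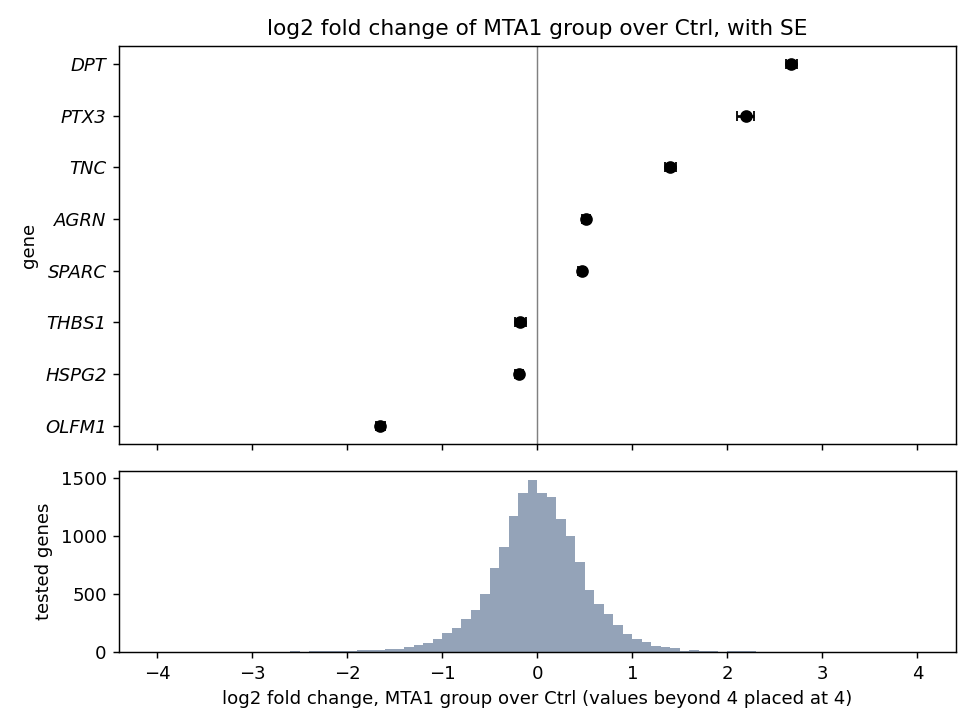
Upper panel, log2 fold change of the MTA1 group over Ctrl with its SE for each gene, from the fit across all genes. Lower panel, number of the 15423 tested genes at each log2 fold change, where DPT at 2.67 and OLFM1 at -1.66 lie in the tails and HSPG2 at -0.20 and THBS1 at -0.18 lie in the centre.

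The order of the 8 genes by level per length differed between the groups. In FPKM the MTA1 order was SPARC (49.2), DPT (46.2), AGRN (9.72), PTX3 (6.66), OLFM1 (5.59), TNC (4.61), HSPG2 (4.16) and THBS1 (3.01), and no neighbours in it had overlapping libraries, although the lowest SPARC library (48.9) lay just above the highest DPT library (48.6). The Ctrl order was SPARC (34.0), OLFM1 (16.8), DPT (6.92), AGRN (6.51), HSPG2 (4.55), THBS1 (3.25), TNC (1.67) and PTX3 (1.39). There DPT and AGRN overlapped, with the lowest DPT library at 6.52 and the highest AGRN library at 6.67 FPKM, and the other neighbours did not. Summed FPKM of the 8 genes was 129 ± 2.25 in MTA1 and 75.1 ± 1.05 in Ctrl libraries (SD, n = 3 each). DPT made up 35.8 ± 0.971% of that sum in MTA1 and 9.21 ± 0.479% in Ctrl libraries. OLFM1 made up 4.33 ± 0.183% in MTA1 and 22.4 ± 1.09% in Ctrl libraries. SPARC had a smaller share in MTA1 (38.1%) than in Ctrl libraries (45.3%) although its own level was higher. The ratio of DPT to OLFM1 was 8.82, 8.25 and 7.75 in MTA1 libraries and 0.460, 0.395 and 0.382 in Ctrl libraries.

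**Figure D3:**
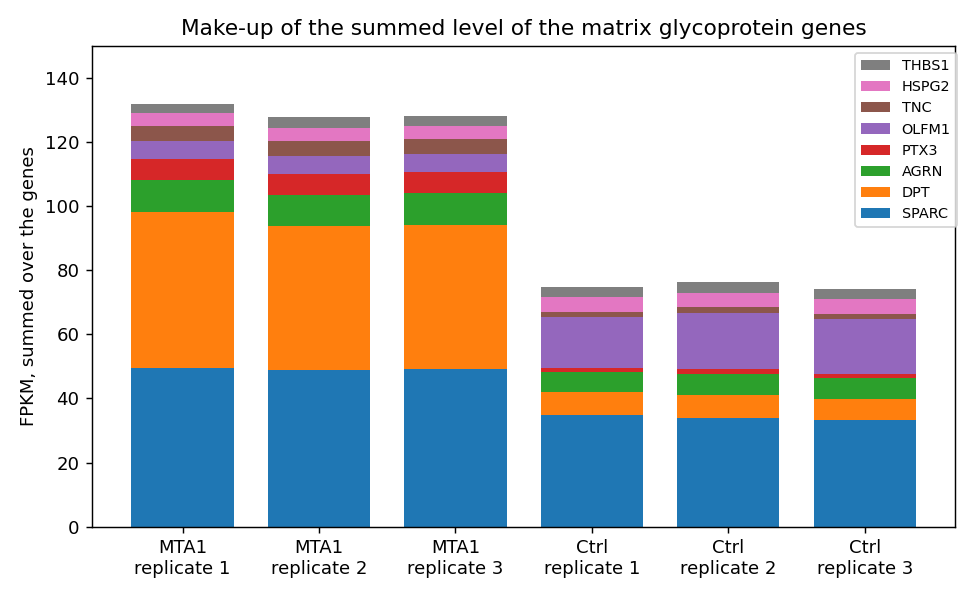
Stacked bars of the FPKM of the 8 genes in each library, MTA1 replicates at left and Ctrl replicates at right. The sum averages 129 FPKM in MTA1 and 75.1 FPKM in Ctrl libraries, and the DPT and OLFM1 segments differ most.

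Replicates were close for all 8 genes. The coefficient of variation between libraries of a group was lowest for SPARC in the MTA1 group, at 0.995%, against 1.13% from counting alone. It was highest for THBS1 in the MTA1 group, at 7.84% against 3.25% from counting, and 1.55% in the Ctrl group, less than counting alone gives. DPT varied by 4.84% in MTA1 and 5.64% in Ctrl libraries, where counting gives 1.91% and 4.75%. PTX3 varied by less than counting alone gives, 2.68% against 4.81% in MTA1 and 6.95% against 10.1% in Ctrl libraries.

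Genes on the same stretch of DNA held few reads. PTX3 lies opposite VEPH1, which had 7, 9 and 6 reads in MTA1 and 10, 9 and 9 in Ctrl libraries. THBS1 overlaps FSIP1 on the other strand, which had 10, 19 and 24 reads in MTA1 and 22, 21 and 21 in Ctrl libraries. None of the overlapping genes of DPT, TNC, SPARC and HSPG2 that the table lists had more than 3 reads in any library. OLFM1 has no overlapping gene in GENCODE 29. The gene that overlaps AGRN is not among the listed genes, so it has no counts. The nearest tested coding genes, by order in RefSeq, were not chosen for their values. DPT stood next to ATP1B1, a sodium pump subunit (35.9 CPM in MTA1 and 30.8 CPM in Ctrl libraries, log2 fold change 0.22 ± 0.051, edgeR adjusted p = 0.00094), and SFT2D2 (0.06 ± 0.075, adjusted p = 0.54). TNC lay between PAPPA, a protease of insulin-like growth factor binding proteins (-0.17 ± 0.070, adjusted p = 0.048), and TMEM268 (0.05 ± 0.11, adjusted p = 0.71). AGRN lay next to ISG15, an interferon-stimulated ubiquitin-like protein, which fell to 37.2 CPM in MTA1, against 70.1 CPM in Ctrl libraries (-0.92 ± 0.047, adjusted p = 2.4e-12), and C1orf159, which rose (0.28 ± 0.065, adjusted p = 0.0010). Next to SPARC, ATOX1, a copper chaperone, fell by 0.40 ± 0.046 on the log2 scale (adjusted p = 3.2e-07), while SLC36A1 did not pass (0.06 ± 0.088, adjusted p = 0.60). OLFM1 lay next to PPP1R26, which rose (0.21 ± 0.052, adjusted p = 0.0016), and FCN2 (-0.25 ± 0.27, adjusted p = 0.44). THBS1 lay between FSIP1 (-0.22 ± 0.30, adjusted p = 0.55) and FAM98B, which fell (-0.24 ± 0.059, adjusted p = 0.0018). HSPG2 lay between USP48, a ubiquitin protease gene that fell (-0.18 ± 0.042, adjusted p = 0.0013), and CDC42, a small GTPase gene (-0.06 ± 0.047, adjusted p = 0.30). Around PTX3 both neighbours rose, CCNL1 by 0.32 ± 0.047 (adjusted p = 8.0e-06) and SHOX2 by 0.34 ± 0.10 (adjusted p = 0.0071).

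The upstream windows differed in composition, and RefSeq windows were matched for 7 of the 8 genes, with AGRN as the gene not matched. G+C content was 42.4% at DPT, 51.6% at PTX3, 54.8% at TNC and 59.2% at SPARC. It was 69.6% at THBS1, 82.8% at HSPG2 and 76.8%, 71.6% and 71.2% at the 3 OLFM1 starts. The 4 genes with a window and a higher level in the MTA1 group had the 4 lowest values. This describes 7 genes chosen on this contrast, and AGRN, also higher, had no window. Whether composition goes with direction was not tested. CpG observed over expected was 0.18 at DPT, 0.34 at SPARC and 0.38 at PTX3, against 0.65 at TNC, 0.81 at THBS1, 0.84 at HSPG2 and 0.81, 0.57 and 0.88 at OLFM1. Of 35116 windows of all genes, 20.3% had a lower ratio than DPT and 74.7% a lower one than HSPG2. The sequences printed above show TATANA with its first base at positions -29 and -27 from the start of DPT and at -29 from that of TNC, and 3.46% of all windows had such a match between -40 and -20. GGGCGG, present in 42.6% of all windows, had 8 matches at HSPG2, 4 at THBS1 and 1 at TNC. OLFM1 had 4 at its first start, 4 at its last and none at the middle one. DPT, PTX3 and SPARC had none. ACGTG, the core of the hypoxia response element (18.5% of all windows), was in none of these 9 windows on either strand. The same held for TGANTCA, read by AP-1 (6.57%). The kappaB motif was searched on both strands only in a narrow form (0.527% of all windows), which none of the 9 windows held. Looser kappaB forms were not searched, so whether these windows, that of PTX3 included, hold a kappaB site was not tested. The motifs were chosen after the values were seen, matches to different motifs do not overlap, the 2 TATANA matches at DPT do, as do some GC boxes at HSPG2, and which OLFM1 start was used is not shown by gene-level counts.

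**Figure D4:**
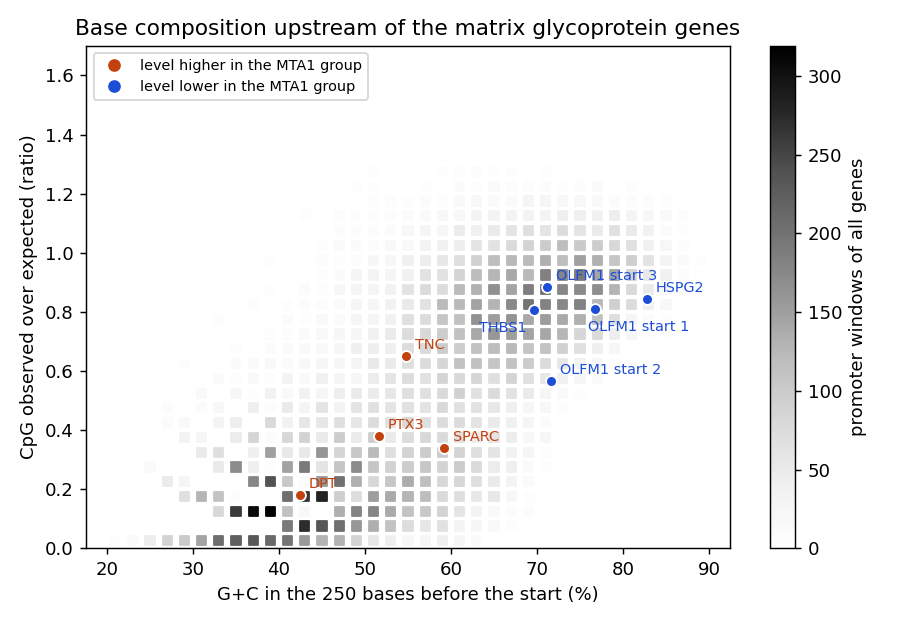
G+C content in percent (x axis) and the ratio of observed to expected CpG (y axis) of the 250 bases before each start, for the windows of 7 genes, on squares shaded by the number of windows of all genes. DPT, PTX3, TNC and SPARC, with higher levels in the MTA1 group, lie at 42.4% to 59.2% G+C, and the windows of THBS1, HSPG2 and OLFM1 at 69.6% to 82.8%. AGRN, also higher, has no window.

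Other genes of the matrix were read from 4 lists written by role. The lists were written with earlier results of these data known, so their shares and medians are a description and no independent test. In the list of paralogs and domain relatives of the 8 genes, 11 of 25 listed genes had enough reads to be tested, 6 rose and 1 fell. Their median log2 fold change was 0.39, against 0.0015 over all tested genes. That median is the value of SPOCK1, picked with its value known, at 0.408 CPM in MTA1 and 0.310 CPM in Ctrl libraries. SPOCK1 did not pass (0.39 ± 0.34, edgeR adjusted p = 0.34). The share of the list called, 63.6%, was near the 58.1% of all genes. FSTL1, a relative of SPARC with a follistatin domain, rose to 77.9 ± 2.52 CPM in MTA1, against 41.1 ± 2.03 CPM in Ctrl libraries (0.92 ± 0.048, edgeR adjusted p = 3.5e-12). The thrombospondin THBS3 rose to 38.0 ± 0.908 CPM in MTA1, against 18.6 ± 1.15 CPM in Ctrl libraries (1.03 ± 0.056, adjusted p = 5.1e-12), while THBS1 was lower. The neuronal pentraxin receptor NPTXR (0.55 ± 0.085) and the SPARC paralog SPARCL1 (0.63 ± 0.16) rose, and SPOCK2, a testican at 0.686 CPM in MTA1 and 1.06 CPM in Ctrl libraries, fell (-0.62 ± 0.25, adjusted p = 0.038). The call of SPOCK2 was lost with DESeq2 (adjusted p = 0.11) and when any of 4 libraries was left out. A pair of relatives picked with their values known missed the threshold: SMOC1, of the SPARC family, at 115 CPM in MTA1 and 110 CPM in Ctrl libraries (0.06 ± 0.042), and the tenascin TNXB at 13.4 and 12.9 CPM (0.04 ± 0.076). TNXB has a near-identical pseudogene copy, so its reads are uncertain. THBS2, THBS4, COMP and the tenascins TNR and TNN had too few reads to be tested.

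Of 27 listed proteoglycans and their basement membrane partners, 19 were tested, 9 rose and 1 fell, with a median of 0.30. The share called, 52.6%, was below that of all genes. Biglycan (BGN), a small leucine-rich proteoglycan, rose to 67.3 ± 0.483 CPM in MTA1, against 29.4 ± 0.782 CPM in Ctrl libraries (1.19 ± 0.047, adjusted p = 5.5e-14). The glypican GPC1 (0.94 ± 0.058), serglycin SRGN (0.75 ± 0.046) and syndecan SDC1 (0.65 ± 0.046) rose. Syndecan SDC2 fell to 52.0 ± 0.814 CPM in MTA1, against 66.5 ± 1.53 CPM in Ctrl libraries (-0.35 ± 0.044, adjusted p = 9.0e-07). The basement membrane linkers NID1 (0.53 ± 0.079) and NID2 (0.64 ± 0.054), which bind laminin and perlecan and were chosen after their values were seen, rose where HSPG2 was lower.

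Of 19 listed receptors of the 8 proteins, 14 were tested, 9 rose and 2 fell, with a median of 0.44. The share called was 78.6%, beside 58.1% of all tested genes. The integrin chains ITGB1 (141 ± 5.32 CPM in MTA1 and 75.5 ± 1.74 CPM in Ctrl libraries, 0.90 ± 0.043), ITGA3 (0.74 ± 0.038) and ITGAV (0.66 ± 0.052) rose, as did calreticulin CALR (0.57 ± 0.050), a chaperone that also serves as a surface partner of thrombospondin. CD36, a scavenger receptor that binds THBS1, fell to 145 ± 8.52 CPM in MTA1, against 210 ± 2.63 CPM in Ctrl libraries (-0.53 ± 0.044, adjusted p = 2.8e-09), and TLR4, an innate receptor that TNC can engage, fell by 0.72 ± 0.098 on the log2 scale. Receptors chosen after their values were seen went several ways. The other thrombospondin receptor CD47 (0.48 ± 0.046) rose, dystroglycan DAG1, which binds agrin and perlecan, rose slightly (0.18 ± 0.040), and the agrin receptor LRP4 stood at 22.1 CPM in MTA1 and 21.7 CPM in Ctrl libraries (0.03 ± 0.065, adjusted p = 0.74).

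Of 53 other listed glycoproteins of the matrix, 33 were tested, 20 rose and 5 fell, with a median of 0.49. The share called was 75.8%, beside 58.1% of all tested genes. In this list 9 genes changed by at least 2-fold, of 33, where 6.19% of all tested genes did. The fibrillin FBN2 rose to 34.7 ± 1.12 CPM in MTA1, against 12.2 ± 0.214 CPM in Ctrl libraries (1.50 ± 0.056, adjusted p = 2.5e-14). Fibronectin FN1 (77.1 ± 2.38 CPM in MTA1 and 34.4 ± 3.76 CPM in Ctrl libraries, 1.16 ± 0.061), TGFBI (0.71 ± 0.038) and the matricellular CCN3 (1.13 ± 0.065) rose. The matricellular genes CCN2 (-1.45 ± 0.069, adjusted p = 9.7e-13) and CCN1 (107 ± 3.61 CPM in MTA1 and 162 ± 2.05 CPM in Ctrl libraries, -0.60 ± 0.040, adjusted p = 1.4e-10) fell.

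**Figure D5:**
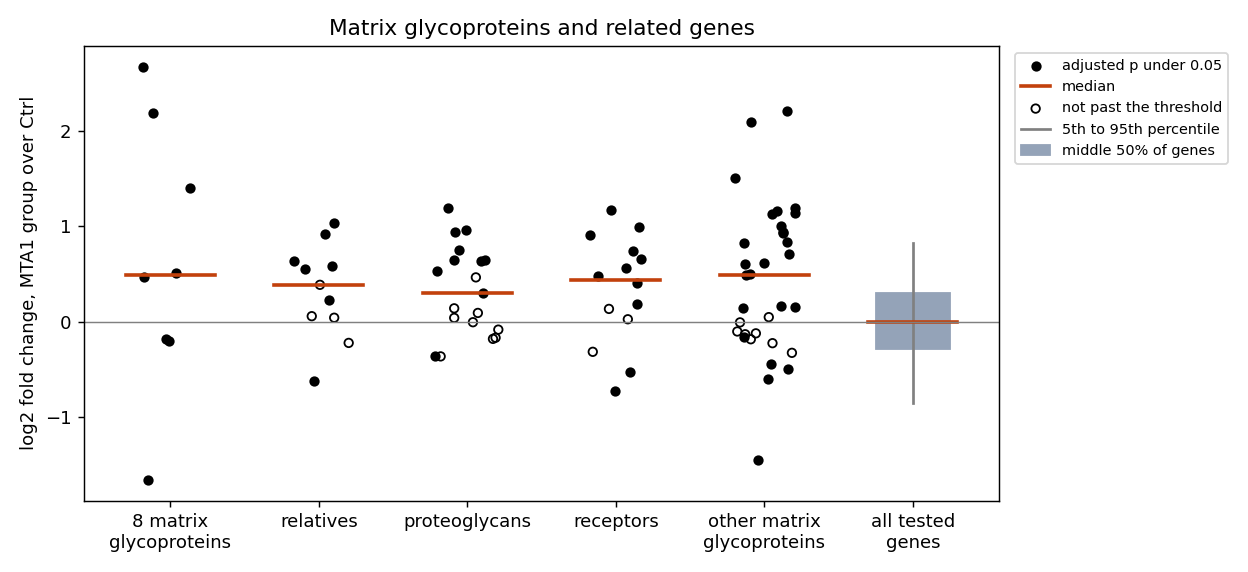
Log2 fold change of the MTA1 group over Ctrl for the 8 genes, for the tested genes of 4 lists and for all tested genes (box, middle 50% of genes, with a line from the 5th to the 95th percentile). Filled points passed an adjusted p of 0.05, and the medians are 0.49, 0.39, 0.30, 0.44 and 0.49 for the gene groups and 0.0015 for all genes.

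The genes most like each of the 8 in pattern were found among 10495 coding genes of at least 2 CPM by the Euclidean distance between log2 CPM over the 6 libraries, each gene centred on its Ctrl mean. With only MTA1 and Ctrl libraries, this distance mainly ranks genes by how alike their log2 fold changes are. A small distance therefore does not show shared regulation. Nearest to DPT were INHBE, an inhibin subunit (distance 0.26), and IL7R, the interleukin receptor chain (0.37). Nearest to PTX3 were IGFBP3, which binds insulin-like growth factors (0.25), and TNFAIP6 (0.30), and nearest to TNC were the complement protease C1R (0.11) and the calcium-binding S100A2 (0.16). TNFAIP6, a hyaluronan-binding protein that is in the list of other glycoproteins, had 4.16 ± 0.148 CPM in MTA1 and 0.972 ± 0.137 CPM in Ctrl libraries (log2 fold change 2.09 ± 0.16). Nearest to OLFM1 were HES1, a repressor known as a Notch target (0.13), with 14.5 ± 0.337 CPM in MTA1 and 45.9 ± 0.433 CPM in Ctrl libraries, and NR4A1, an orphan nuclear receptor (0.17), with 50.1 ± 1.09 and 154 ± 1.82 CPM. The 2 nearest genes of each of the others lay closer. CD59 and RETSAT were at 0.030 and 0.036 from SPARC, and S100A16 and PTCD3 at 0.040 and 0.046 from AGRN. RPF2 and RNF169 were at 0.035 and 0.044 from HSPG2, and NR3C1 and SEMA3F at 0.060 and 0.061 from THBS1.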

How the data were processed

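Total RNA was extracted with TRIzol, treated with DNase I and sequenced from stranded total RNA libraries, per the labels' protocols. The authors deposited whole-number counts per gene without normalization, and FPKM values, which they scaled for length and depth and rounded, per the file headers and values. The aligner, counter, strand setting and genome build were not given in the sources used here. DESeq2 is named, with no role stated, in the submitters' processing notes. The gene lengths implied by FPKM and counts were 1.09 to 1.13 times the summed exons of GENCODE 29. Columns named NC match no title and were taken as Ctrl by elimination, keeping their numbers. Library totals ran from 29909172 to 33849262 counts.

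The test was edgeR's quasi-likelihood F test (edgeR 4.0.16, R 4.3.3), 2-sided, on TMM-scaled counts of the 15423 genes that filterByExpr left, with only the group in the model. P-values were adjusted by Benjamini-Hochberg over these genes, and the threshold was 0.05. SEs of log2 fold changes come from that fit. The 8 genes and the lists were chosen with earlier results of these data known. Genes are named if they are one of the 8, MTA1, the 4 smallest p in the main direction of a list or the 2 smallest in the other, or one of the 2 nearest in pattern to one of the 8, and other genes of the lists are marked as chosen after their values were seen. Genomic neighbours were taken by position, and marker genes from their lists. Some of the genes read to check the cell line are not reported here, so that check is partial. Squared differences between libraries of a group were 3.30 to 9.25 times counting noise, so none was a copy of another. Alternatives were other scalings (DESeq2 1.42.0, upper quartile, library size), other filters, the DESeq2 Wald test, limma-voom (limma 3.58.1), limma on FPKM with pseudocounts of 0.1 and of 1 on the log2 scale, a table without mitochondrial genes and the 20 most abundant ones, the replicate block, and each library left out.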

Additional observations from a re-analysis of the deposited data

How the results depend on the processing

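The 8 genes were chosen on this contrast, so their directions and calls under the 17 alternatives are a description and no sign of stability. THBS1, of the 3 lower genes, missed the threshold without MTA1 replicate 1, with library size only, with log2(FPKM + 0.1) and with log2(FPKM + 1). Log2 fold changes ranged from 2.58 to 2.74 for DPT, 1.68 to 2.26 for PTX3, 1.07 to 1.47 for TNC, 0.49 to 0.58 for AGRN, 0.45 to 0.53 for SPARC, -0.22 to -0.087 for THBS1, -0.23 to -0.11 for HSPG2 and -1.70 to -1.43 for OLFM1. The values nearest 0 for DPT, PTX3, TNC, THBS1, HSPG2 and OLFM1 came with log2(FPKM + 1), which draws low levels together by construction. The FPKM scales also lack TMM scaling. With library size only, THBS1 was at -0.11, HSPG2 at -0.13 and OLFM1 at -1.59, while DPT, PTX3 and TNC had their highest values. The parts of scaling and pseudocount were not tested.

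In the list of relatives, the count of 1 lower gene, SPOCK2, became 0 with library size only, with 1 CPM in 3 libraries, with DESeq2 and on both FPKM scales, 2 with no filter, and 0 to 1 when a library was left out, with 0 without Ctrl replicate 1 or 2 and without MTA1 replicate 1 or 2. Among the other glycoproteins, 5 lower genes became 3 with library size only and on both FPKM scales. They became 6 with DESeq2 size factors, with no filter, with 1 CPM in 3 libraries and with the replicate block. The count was 3 to 5 when a library was left out. It was 3 without Ctrl replicate 2, where LTBP3 and FBLN7 missed the threshold. Genes past the threshold numbered 4090 to 4329 higher and 4011 to 4219 lower when a library was left out, against 4550 and 4404 with all 6 libraries. They numbered 5376 higher and 3574 lower with library size only, 5043 and 3345 with log2(FPKM + 0.1), and 5070 and 3335 with log2(FPKM + 1).

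Deviations of same-numbered libraries from their group means had correlations of 0.067, -0.021 and 0.019. Those of differently numbered libraries ran from -0.079 to 0.062. With 3 libraries per group, these values cannot tell whether the numbers pair the samples. With the replicate block 4638 genes were higher and 4501 lower, 5 of the 8 genes higher and 3 lower. Without a stated pairing the block is given only as an alternative. PTX3, with 87 to 106 reads in Ctrl libraries, is the gene whose precision depth limits most.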

Other observations

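Genes with few CpG in the 250 bases before the start were read as a class, as DPT, PTX3 and SPARC belong to it. Among genes with 1 RefSeq window, 969 tested genes had an observed over expected CpG ratio under 0.5, and 14.6% of them passed the threshold with a change of at least 2-fold. Of the 6618 tested genes with a higher ratio, 3.73% did. The CpG-poor genes were also less abundant, with a median of 2.55 CPM against 14.7 CPM, and the part of abundance in this difference was not tested. The share past the threshold at any size was 54.3% in the CpG-poor class and 61.4% in the other, and the median log2 fold change was -0.037 and 0.011. In the CpG-poor class 260 genes were called higher and 266 lower, and in the other class 2072 and 1989. The ratio of 0.5 that divides the classes was chosen after the values of the 8 genes were known.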
